A study of Caenorhabditis elegans with 6 samples.

Results

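The muscle thick and thin filament genes unc-54, myo-1, myo-2, myo-3, unc-15, unc-22, unc-89, lev-11, mup-2 and unc-27 of C. elegans were followed in RNA sequencing of whole L4 larvae. These 10 genes were chosen by symbol, and all 10 were found among the 46778 genes of the deposited values by their WormBase identifiers in the WBcel235 annotation. Worms of the wild-type strain N2 were grown from synchronized L1 larvae at 20 °C on HT115 bacteria. The 3 control libraries came from worms fed bacteria carrying the empty vector L4440, and the 3 other libraries carry the label let-607 RNAi, for which the paper's methods describe RNAi bacteria diluted with control bacteria. LET-607 is the worm relative of the mammalian transcription factor CREBH, and the comparison asks which transcripts differ when it is targeted. Because whole worms were sequenced, fewer muscle cells and less RNA per muscle cell cannot be told apart, and nothing in the labels says whether the 3 libraries of a group came from separate cultures, so the spread between them may be technical.

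Muscle contracts when myosin heads of the thick filament pull on the actin of the thin filament. In the nematode body wall, the myosin heavy chains UNC-54 and MYO-3 assemble with the rod protein paramyosin (UNC-15) into thick filaments, with MYO-3 in the middle and UNC-54 towards both ends. The giant kinases twitchin (UNC-22) and UNC-89, the relative of obscurin, bind along the thick filament and at the M-line that holds it in register. Thin filaments carry tropomyosin (LEV-11), troponin T (MUP-2) and troponin I (UNC-27), which set when calcium allows contraction. The pharynx, the feeding pump, has its own myosin heavy chains, MYO-1 and MYO-2.

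The check of the targeted gene in these libraries went against the label. let-607 read 69.1, 57.1 and 57.3 FPKM in the controls, against 71.0, 76.2 and 77.9 FPKM under the let-607 RNAi label (log2 fold change 0.30, limma adjusted p = 0.034, and 0.18 with an adjusted p of 0.151 after median-of-ratios scaling). The libraries are therefore called by their label throughout. The paper itself reports, from qPCR normalized to snb-1, that let-607 mRNA was lowered in worms fed the diluted RNAi bacteria. In the sequenced libraries snb-1 averaged 155 FPKM in the controls and 230 FPKM under the let-607 RNAi label. Its log2 fold change was 0.57 (limma adjusted p = 0.000218), and 0.45 after median-of-ratios scaling. Why the sequenced libraries differ from the qPCR report was not tested. The FPKM alone therefore do not show that the knockdown failed or that the labels are wrong. FPKM scales fragment counts for transcript length and library depth, so levels of different genes can be compared per length. The FPKM of a library summed to between 1448934 and 1485099 in the controls, and to between 1400487 and 1429914 under the let-607 RNAi label. The lowest values fell on steps, and the lowest step lay between 0.0604 and 0.0636 FPKM for a transcript of 1 kb, so that the libraries held roughly 15700000 to 16600000 fragments if 1 step is 1 fragment. At that depth myo-2, the filament gene with the fewest implied fragments, rested on 2780 to 3390 of them per library, and counting error was at most 1.9% of its value.

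The groups were compared for 15453 genes averaging 0.5 FPKM or more by limma, which fits a linear model to each gene and steadies its variance with that of all genes. SE is the standard error. A log2 fold change is the difference between the group means of log2(FPKM + 0.1), libraries labelled let-607 RNAi minus control, and each p-value was adjusted over all genes tested by the Benjamini-Hochberg method. A gene is called higher or lower at an adjusted p under 0.1. Over all genes tested the log2 fold change had a median of 0.12, so an average gene stood slightly higher in the labelled RNAi libraries before any scaling. After median-of-ratios scaling, which brings that median close to 0, the libraries labelled let-607 RNAi were divided by 1.04 to 1.06 and the control libraries by 0.952 to 0.964.

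In the deposited FPKM, 4 of the 10 filament genes were called higher under the let-607 RNAi label than in the controls (unc-54, unc-15, unc-22 and unc-89) and 1 was called lower (mup-2), against 31.7% of all genes tested called higher, 11.4% called lower and 43.0% called in either direction. The share of 4 in 10 is close to that background and is no result about these genes as a set. None of the 10 changed by more than 1 on the log2 scale, whereas 5.14% of all genes tested did so with an adjusted p under 0.1. The groups did not overlap for 6 of the 10 genes, compared with 49.1% of all genes tested, with 4 of them above the controls (35.7% of all genes) and 2 below (13.4%). The median log2 fold change of the 10 genes was 0.08. After median-of-ratios scaling none of the 10 was called higher and 3 were called lower (lev-11, mup-2 and unc-27), against 18.8% and 19.3% of all genes and 38.2% in either direction. The number called higher also fell from 4 to 2 without the second control library, without the second or without the third library labelled let-607 RNAi.

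**Figure D1:**
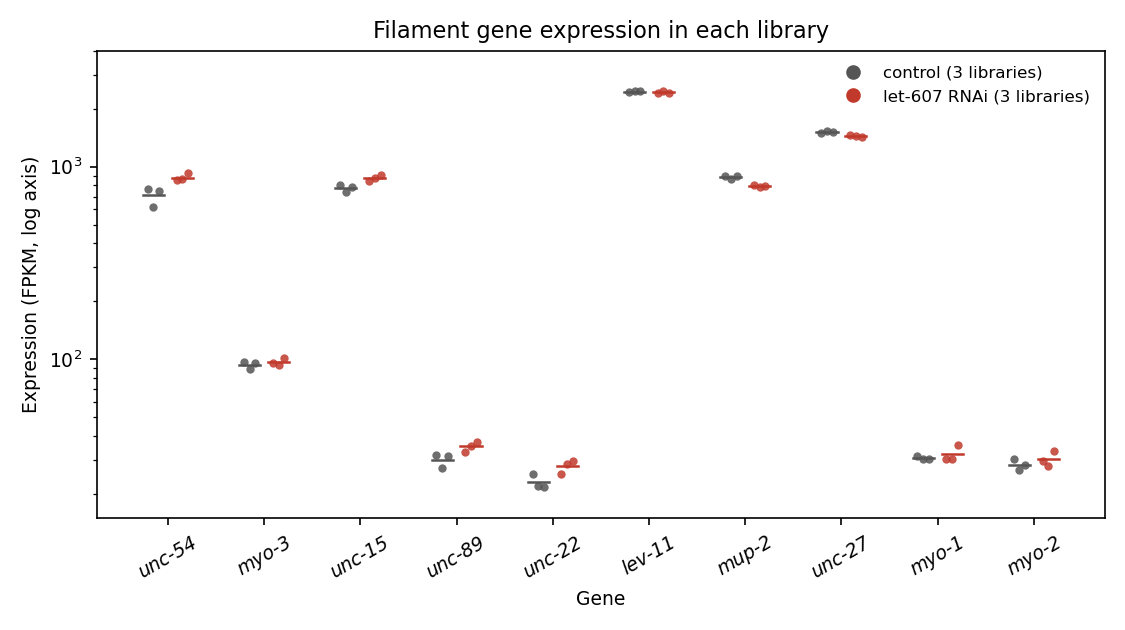
Expression of the 10 filament genes in FPKM (vertical log axis), with 1 point for each library and a line at the mean of the 3 libraries of a group. The thin filament genes lev-11 and unc-27 stand highest, unc-54 and unc-15 lie near mup-2, and the giant genes and the pharyngeal myosins lie near 30 FPKM (28.4 for myo-2 in the control libraries). The differences between groups are small beside the range between genes.

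unc-54 encodes the major myosin heavy chain of the body wall (WBGene00006789, minus strand of chromosome I, bases 14855901 to 14863482). It stood at 771, 622 and 750 FPKM in the controls, and under the let-607 RNAi label at 855, 859 and 924 FPKM. The groups did not overlap, and the second control library stood clearly below the other two. The group means were 714 ± 81.0 and 879 ± 38.9 FPKM (SD, n = 3 in either group), 23.1% higher. unc-54 rose by 0.31 on the log2 scale (SE 0.08, limma adjusted p = 0.0323), the largest change among the 10 genes in the deposited FPKM. Without the second control library the log2 fold change was 0.21 (limma adjusted p = 0.0246). After median-of-ratios scaling it was 0.18 (limma adjusted p = 0.151), so the call was lost. The call was kept after quantile normalization (0.34, limma adjusted p = 0.0234) and when rescaled to TPM (0.35, limma adjusted p = 0.0193).

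myo-3 encodes the minor heavy chain in the middle of the same filaments (WBGene00003515, minus strand of chromosome V, bases 12226817 to 12234343). It stood at 96.5, 89.1 and 95.6 FPKM in the controls, and under the let-607 RNAi label at 95.7, 93.7 and 102 FPKM. These ranges overlapped. The log2 fold change of myo-3 was 0.05 (SE 0.05, limma adjusted p = 0.487), and it was -0.07 after median-of-ratios scaling (limma adjusted p = 0.363).

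unc-15 encodes paramyosin, the core of the thick filament (WBGene00006754, minus strand of chromosome I, bases 7376604 to 7383197). The 3 controls read 803, 738 and 788 FPKM and the 3 libraries under the other label 840, 873 and 909 FPKM. The lowest labelled RNAi library lay above the highest control library. unc-15 rose from a mean of 776 ± 34.2 to one of 874 ± 34.4 FPKM (SD, n = 3 in either group), a change on the log2 scale of 0.17 (SE 0.05, limma adjusted p = 0.0291). It kept this call in each of the 6 fits that left out a library, with an adjusted p of at most 0.0883, but not after median-of-ratios scaling, which gave 0.05 (limma adjusted p = 0.469). Quantile normalization (0.19, limma adjusted p = 0.0211) and rescaling to TPM (0.22, limma adjusted p = 0.0157) kept the call.

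unc-22 encodes twitchin, a giant kinase whose loss makes worms twitch (WBGene00006759, minus strand of chromosome IV, bases 11972697 to 12011007). It stood at 25.34, 22.03 and 21.69 FPKM in the controls, and under the let-607 RNAi label at 25.5, 28.6 and 29.7 FPKM. The groups were separated only narrowly, between the first control library and the first labelled RNAi library. The log2 fold change was 0.28 (SE 0.09, limma adjusted p = 0.0477). Without the second control library the adjusted p of unc-22 was 0.128, without the third control library it was 0.134, without the second labelled RNAi library 0.133 and without the third labelled RNAi library 0.135, so the call depended on each of these libraries. It was 0.214 after median-of-ratios scaling (log2 fold change 0.16) and 0.357 after quantile normalization (log2 fold change 0.12). unc-22 shares between 39 and 130 exon bases with each of 4 other annotated genes, at most 0.556% of its exon length of 23368 bases.

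unc-89 encodes the giant M-line protein (WBGene00006820, plus strand of chromosome I, bases 4035702 to 4090885). Controls read 32.0, 27.2 and 31.5 FPKM, and libraries under the let-607 RNAi label read 33.0, 35.6 and 37.4 FPKM. As for unc-54, the second control library was the lowest of the 6. unc-89 rose from a mean of 30.2 ± 2.66 to one of 35.3 ± 2.22 FPKM (SD, n = 3 in either group), a change on the log2 scale of 0.23 (SE 0.08, limma adjusted p = 0.0742). The adjusted p of unc-89 was 0.169 without the second control library, 0.170 without the second labelled RNAi library, 0.193 without the third, 0.372 after median-of-ratios scaling (log2 fold change 0.10) and 0.496 after quantile normalization (log2 fold change 0.08).

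mup-2, a troponin T gene of the body wall, moved the other way (WBGene00003495, minus strand of chromosome X, bases 6408471 to 6410227). It stood at 897, 863 and 892 FPKM in the controls, and under the let-607 RNAi label at 801, 787 and 790.0 FPKM. All 3 control libraries stood above all 3 labelled RNAi libraries, by more than the spread within either group. mup-2 fell from a mean of 884 ± 18.4 to one of 793 ± 7.22 FPKM (SD, n = 3 in either group), a change on the log2 scale of -0.16 (SE 0.03, limma adjusted p = 0.00788). It was called lower in each of the 17 alternatives, with log2 fold changes between -0.28 and -0.11. Other troponin T genes did not fall with it in the deposited FPKM. tnt-2, at means of 820 and 827 FPKM, had a log2 fold change of 0.01 (limma adjusted p = 0.809). That of tnt-3 was 0.12 (limma adjusted p = 0.142). After median-of-ratios scaling they were -0.11 (limma adjusted p = 0.0657) and -0.0066 (limma adjusted p = 0.936).

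unc-27, a troponin I gene, lies on the plus strand of chromosome X, bases 8789456 to 8790621 (WBGene00006764). It stood at 1490.0, 1538 and 1514 FPKM in the controls, and under the let-607 RNAi label at 1463, 1450 and 1431 FPKM. The groups did not overlap, but the difference was small. The log2 fold change was -0.06 (SE 0.03, limma adjusted p = 0.125), and it was -0.19 after median-of-ratios scaling (limma adjusted p = 0.0056) and 0.06 after quantile normalization (limma adjusted p = 0.138).

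lev-11, the tropomyosin gene, was the most highly expressed of the 10 (WBGene00002978, minus strand of chromosome I, bases 14621169 to 14631094, with 20 annotated transcripts that the gene-level values do not tell apart). It stood at 2435, 2459 and 2471 FPKM in the controls, and under the let-607 RNAi label at 2401, 2477 and 2409 FPKM. The groups overlapped. The log2 fold change was -0.02 (SE 0.03, limma adjusted p = 0.702). Its direction depended on the scaling, from -0.14 after median-of-ratios scaling (limma adjusted p = 0.0111) to 0.07 after quantile normalization (limma adjusted p = 0.158).

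The pharyngeal myosin genes were near the middle of these changes. myo-1 (WBGene00002348, minus strand of chromosome I, bases 7258946 to 7267057) read 31.5, 30.4 and 30.3 FPKM in the controls, against 30.2, 30.4 and 35.8 FPKM under the let-607 RNAi label. myo-2 (WBGene00003514, plus strand of chromosome X, bases 12468061 to 12475348) read 30.4, 26.6 and 28.3 FPKM in the controls, against 29.5, 28.0 and 33.4 FPKM under the let-607 RNAi label. For both genes the groups overlapped and the third labelled RNAi library was the highest of the 6. The log2 fold change of myo-1 was 0.06 (SE 0.07, limma adjusted p = 0.571). The log2 fold change of myo-2 was 0.09 (SE 0.08, limma adjusted p = 0.440). Both values turned below 0 after median-of-ratios scaling and after quantile normalization, with adjusted p-values from limma between 0.495 and 0.833.

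**Figure D2:**
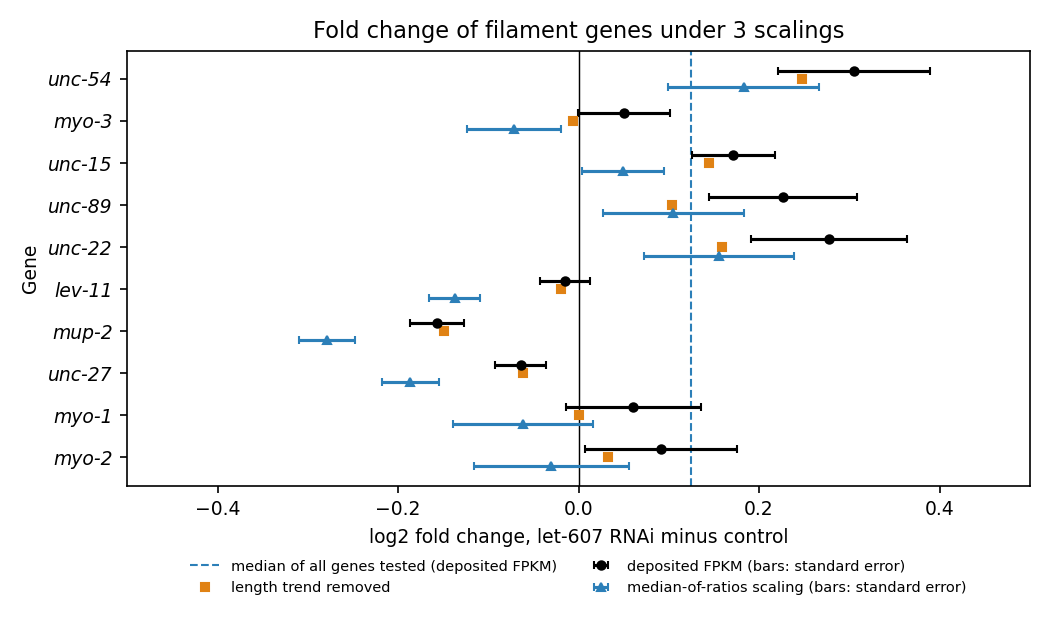
Log2 fold change of each filament gene (horizontal axis, libraries labelled let-607 RNAi minus control) in the deposited FPKM (black circles), with each library's trend on exon length removed (orange squares) and after median-of-ratios scaling (blue triangles). Bars are standard errors from limma and the dashed line is the median of all genes tested, 0.12. unc-54, unc-22, unc-89 and unc-15 lie right of the dashed line in the deposited FPKM and mup-2 lies furthest left.

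Per length, the order of the levels over all 6 libraries was lev-11 (2442 FPKM), unc-27 (1481 FPKM), mup-2 (838 FPKM), unc-15 (825 FPKM), unc-54 (797 FPKM), myo-3 (95.4 FPKM), unc-89 (32.8 FPKM), myo-1 (31.4 FPKM), myo-2 (29.4 FPKM) and unc-22 (25.5 FPKM). In these pooled means the 3 thin filament genes stood highest, although under the let-607 RNAi label mup-2 (mean 793 FPKM) lay below unc-15 (874 FPKM) and unc-54 (879 FPKM). The body wall myosins stood above the pharyngeal myosins. Neighbours in this order were separated in both groups for lev-11 and unc-27, for unc-27 and mup-2, for unc-54 and myo-3, and for myo-3 and unc-89. unc-15 and unc-54 overlapped in both groups, as did unc-89 and myo-1, and myo-1 and myo-2. mup-2 and unc-15 changed places, with every control value of mup-2 above every one of unc-15 and every value under the let-607 RNAi label below. myo-2 lay above unc-22 in the control libraries, and they overlapped under that label.

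The body wall and the pharynx were compared with the ratio of 2 genes inside each library, which a single scaling factor per library cannot change, although quantile normalization can. Of 13 such ratios, 7 set a body wall gene against its pharyngeal counterpart, and 6 set genes of the same tissue or filament against each other. The two-sided exact permutation test over libraries cannot give a p under 0.1 with 3 libraries against 3, so no ratio could pass 0.05, and the smallest p adjusted over the 13 ratios was 0.217.

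The ratio of unc-54 to myo-2 was 25.3, 23.4 and 26.5 in the controls, against 28.9, 30.7 and 27.7 under the let-607 RNAi label. The ratio of unc-54 to myo-1 was 24.5, 20.5 and 24.8 in the controls, against 28.3, 28.2 and 25.8 under the let-607 RNAi label. In both cases every labelled RNAi library was above every control library (exact permutation p = 0.1 each, the smallest possible). The log2 ratio differed by 0.21 (SE 0.07) against myo-2 and by 0.24 (SE 0.10) against myo-1. The other body wall myosin did not show this separation. The ratio of myo-3 to myo-2 was 3.17, 3.35 and 3.38 in the controls, against 3.24, 3.35 and 3.05 under the let-607 RNAi label, a difference in log2 ratio of -0.04 (SE 0.05, exact permutation p = 0.5). For myo-3 against myo-1 the difference was -0.01 (SE 0.06, exact permutation p = 1).

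Among the whole-worm transcripts for body wall thick filament proteins, unc-54 moved away from myo-3. The ratio of unc-54 to myo-3 was 7.99, 6.98 and 7.85 in the controls, against 8.93, 9.16 and 9.08 under the let-607 RNAi label. The groups did not overlap, and the log2 ratio differed by 0.25 (SE 0.06, exact permutation p = 0.1). The exon lengths of unc-54 (6204 bases), myo-3 (6104), myo-1 (6457) and myo-2 (6334) are nearly equal, so these ratios compare transcripts of like length. Of the summed FPKM of the 4 myosin genes, unc-54 made up 82.3 ± 1.14% in the control libraries and 84.6 ± 0.279% under the let-607 RNAi label (SD, n = 3 each), and myo-3 10.8 ± 0.658% and 9.35 ± 0.111%. The ratio of unc-54 to unc-15 was 0.960, 0.843 and 0.952 in the controls, against 1.02, 0.984 and 1.02 under the let-607 RNAi label, so that these libraries also stood above the control libraries (difference in log2 ratio 0.13, SE 0.06, exact permutation p = 0.1). myo-2 to myo-1 and unc-89 to unc-22 overlapped between the groups, with differences in log2 ratio of 0.03 and -0.05 (exact permutation p = 0.6 and 0.8).

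Troponin gave no separation between body wall and pharynx. TNT-4, TNI-4 and TNC-2 are the pharyngeal forms of troponin T, I and C, and PAT-10 is the body wall form of troponin C. The ratio of mup-2 to tnt-4 was 23.618, 21.486 and 21.272 in the controls, against 20.671, 25.293 and 18.004 under the let-607 RNAi label, a difference in log2 ratio of -0.07 (SE 0.15, exact permutation p = 0.7). The ratio of unc-27 to tni-4 differed by 0.03 on the log2 scale (SE 0.07, exact permutation p = 0.6), and that of pat-10 to tnc-2 by -0.11 (SE 0.09, exact permutation p = 0.2). The groups overlapped for all 3 troponin pairs. With these standard errors, a difference as small as the fall of mup-2 itself was not detectable for troponin T. Among the thin filament genes, the ratio of lev-11 to mup-2 was 2.71, 2.85 and 2.77 in the controls, against 3.00, 3.15 and 3.05 under the let-607 RNAi label. The groups were separated (difference in log2 ratio 0.14, SE 0.03, exact permutation p = 0.1). The ratio of mup-2 to unc-27 was 0.602, 0.561 and 0.589 in the controls, against 0.547, 0.543 and 0.552 under the let-607 RNAi label, again without overlap (difference -0.09, SE 0.03, exact permutation p = 0.1).

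**Figure D3:**
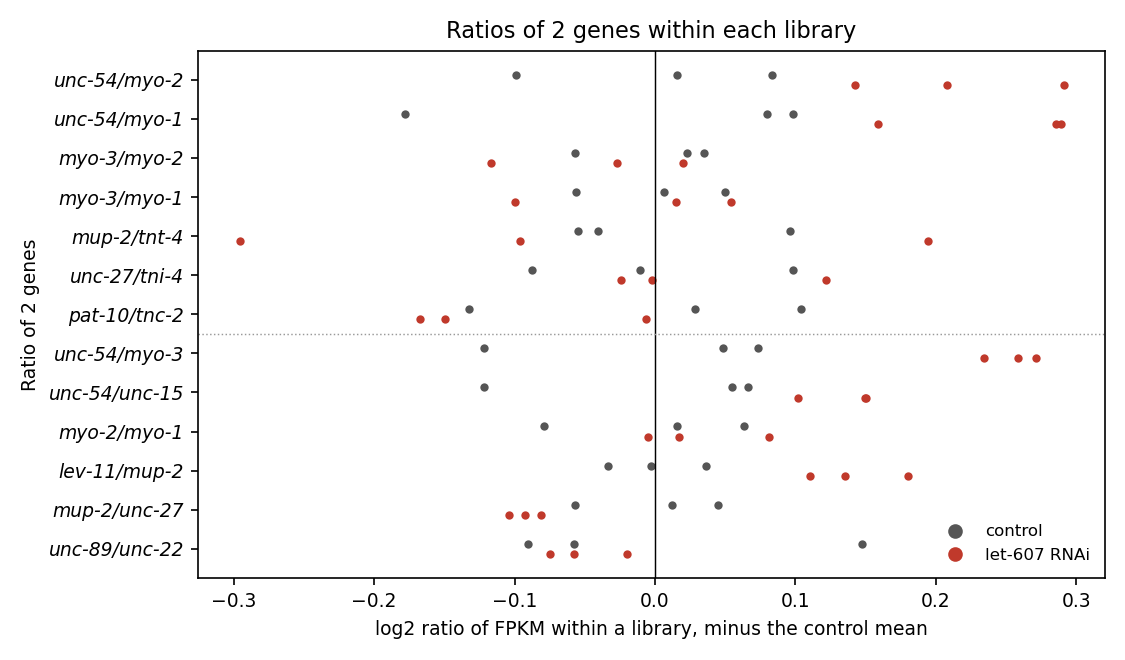
Log2 ratio of the FPKM of 2 genes within each library, minus the mean of the 3 control libraries (horizontal axis), for control libraries (grey) and libraries labelled let-607 RNAi (red). The 7 ratios above the dotted line set body wall against pharynx. The ratios with unc-54, lev-11/mup-2 and mup-2/unc-27 are separated, 6 of 13 in all, and those with myo-3 against a pharyngeal gene overlap. Each separated ratio holds unc-54 or mup-2, whose groups did not overlap on their own, as for 49.1% of all genes tested. The separated ratios are therefore not independent results, and how often ratios of other gene pairs separate was not tested.

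Exon length moved with the log2 fold change. Over all genes tested its median was 0.10 for the 5280 genes with up to 1 kb of annotated exons, 0.12 from 1 to 2 kb, 0.14 from 2 to 4 kb, 0.17 from 4 to 10 kb and 0.24 for the 48 genes above 10 kb. Of the genes above 10 kb, 45.8% were called higher and 4.17% lower. Among the filament genes, unc-22 (23368 bases) and unc-89 (25942 bases) belong to the longest class, and mup-2 (1465 bases) and unc-27 (933 bases) are the shortest. In that longest class, the median gene stood at -0.02, -0.16 and -0.18 around its mean on the log2 scale in the controls, and at 0.04, 0.15 and 0.16 under the let-607 RNAi label. With each library's trend on exon length removed, an alternative chosen after seeing the data, the log2 fold change was 0.10 for unc-89 (limma adjusted p = 0.316), 0.16 for unc-22 (adjusted p = 0.0379), 0.25 for unc-54 (adjusted p = 0.0607), 0.14 for unc-15 (adjusted p = 0.0333) and -0.15 for mup-2 (adjusted p = 0.00846). unc-89 was no longer called, and the other 4 calls were kept, 3 higher and 1 lower of 10 (31.4% and 11.6% of all genes in this fit, 43.0% in either direction). Expression level moved with the fold changes as well. Of the 395 genes averaging 500 FPKM or more, 13.4% were called higher and 48.1% lower, with a median log2 fold change of -0.09. lev-11, unc-27, mup-2, unc-15 and unc-54 belong to this class.

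**Figure D4:**
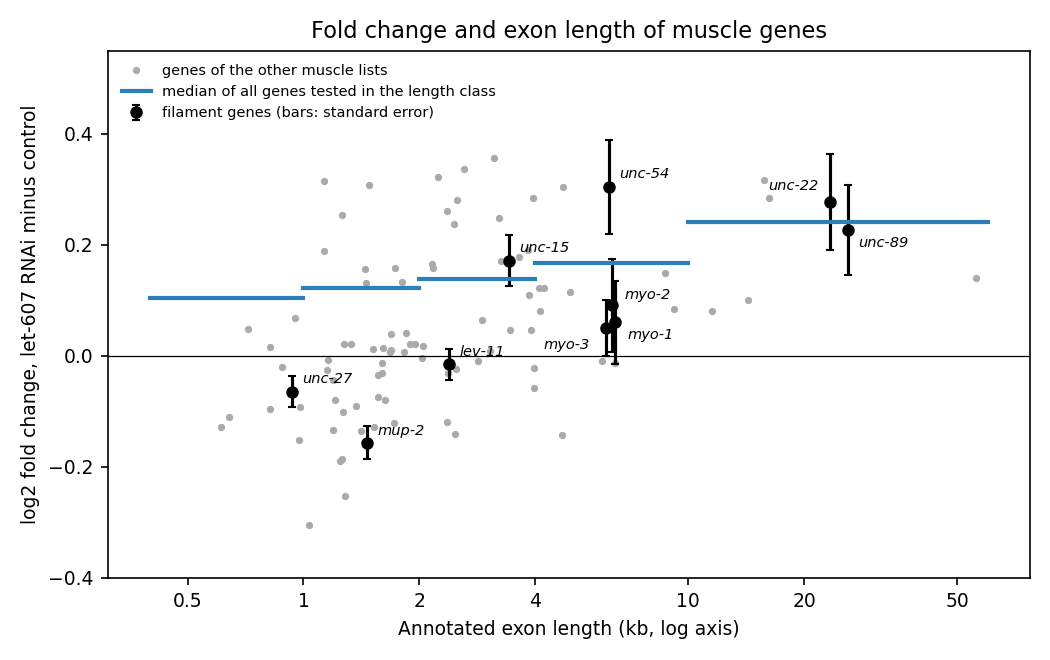
Log2 fold change (vertical axis, libraries labelled let-607 RNAi minus control) against annotated exon length in kb (log axis) for the filament genes (black, with standard errors from limma), the genes of the other muscle lists (grey) and the median of all genes tested in 5 length classes (blue lines). The blue lines rise from 0.10 to 0.24. unc-54 stands above the median of its class, while myo-1, myo-2 and myo-3, of nearly the same length, stand below it, as do unc-27, mup-2 and lev-11 for theirs. unc-22 and unc-15 stand above the medians of their classes, and unc-89 (0.23) slightly below its own (0.24).

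The other muscle genes were taken from 7 lists with 90 genes, of which 89 were tested. 17 of them were called higher and 12 lower under the let-607 RNAi label (19.1% and 13.5%, against 31.7% and 11.4% of all genes tested). Their median log2 fold change was 0.02, and none passed an absolute log2 fold change of 1. After median-of-ratios scaling 9 were called higher and 30 lower (10.1% and 33.7%, against 18.8% and 19.3% of all genes). The number called higher was 10 without the second and 11 without the third library labelled let-607 RNAi.

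Of 16 other contractile proteins (actins, troponins, myosin light chains and titin), none was called higher and 3 were called lower, with a median log2 fold change of -0.02 (none higher and 11 lower once scaled by median of ratios, 2 higher and 2 lower once quantile-normalized). No gene of this list was higher at an unadjusted p under 0.05 either. The shares called over all genes tested were 31.7% higher and 11.4% lower. They were 18.8% and 19.3% once scaled by median of ratios, and 16.6% and 18.8% once quantile-normalized. tni-1, another troponin I gene, fell from a mean of 254 ± 2.23 FPKM to 205 ± 4.93 FPKM (SD, n = 3 in either group), a change on the log2 scale of -0.30 (SE 0.03, limma adjusted p = 0.000886). act-2, an actin gene, fell by 0.25 on the log2 scale (adjusted p = 0.00139) and mlc-2, a regulatory light chain of myosin, by 0.11 (adjusted p = 0.0382). The call of mlc-2 was lost without the second (adjusted p = 0.127) or the third labelled RNAi library (adjusted p = 0.105), and its log2 fold change was -0.06 when rescaled to TPM (adjusted p = 0.186) and -0.01 after quantile normalization (adjusted p = 0.777). The 4 muscle actin genes are near-identical copies whose reads the counting may have split, so the value of act-2 is uncertain. pat-10, tnt-4, tni-4 and tnc-2 were not called in the deposited FPKM, with log2 fold changes of -0.09, -0.09, -0.10 and 0.02. Once scaled by median of ratios, pat-10 (-0.21, limma adjusted p = 0.0126) and tni-4 (-0.22, limma adjusted p = 0.0672) were called lower. Both were also called lower without the first control library (limma adjusted p = 0.0726 and 0.0922).

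Of 12 regulators of the thin filament, 7 were called higher and 3 lower (4 and 4 after median-of-ratios scaling). Among all genes tested, 31.7% were called higher and 11.4% lower (18.8% and 19.3% after that scaling). tmd-2, a tropomodulin that caps filament ends, rose by 0.34 on the log2 scale (adjusted p = 0.00533), and the cyclase-associated proteins cas-2 and cas-1, which recycle actin monomers, rose by 0.31 and 0.30. After quantile normalization tmd-2 (0.14, limma adjusted p = 0.123) and cas-2 (0.16, limma adjusted p = 0.225) were not called. cas-2 was also not called after median-of-ratios scaling (0.19, limma adjusted p = 0.156), nor without the third control library (adjusted p = 0.115), the second labelled RNAi library (adjusted p = 0.117) or the third (adjusted p = 0.104). The genes that fell all encode calponin-related proteins that stabilize actin filaments. cpn-3 fell from a mean of 957 ± 7.16 to one of 876 ± 22.6 FPKM (SD, n = 3 in either group), a change on the log2 scale of -0.13 (limma adjusted p = 0.0197), clik-1 had a log2 fold change of -0.12 and unc-87 of -0.12. After median-of-ratios scaling the log2 fold changes were -0.25, -0.24 and -0.24. Rescaled to TPM, clik-1 (-0.07, limma adjusted p = 0.136) and unc-87 (-0.07, limma adjusted p = 0.126) were not called, and clik-1 was not called after quantile normalization (-0.05, limma adjusted p = 0.406).

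The attachment sites of the filaments, the dense bodies for actin and the M-lines for myosin, gave 4 genes called higher and 5 called lower of 21, with a median of 0.01. The shares over all genes tested were 31.7% and 11.4%. ketn-1, which encodes the giant actin-binding protein kettin and has 15712 exon bases, rose by 0.32 (adjusted p = 0.043), talin (tln-1) by 0.15 and lim-9 by 0.11. After median-of-ratios scaling and after quantile normalization no gene of the list was called higher, and 10 and 8 were called lower. In these fits 18.8% and 16.6% of all genes were called higher, and 19.3% and 18.8% lower. The log2 fold change of lim-9 was -0.01 after median-of-ratios scaling. unc-98, an M-line zinc finger protein, had a log2 fold change of -0.19 (limma adjusted p = 0.019), pat-6, the parvin of the integrin complex, of -0.19 and alp-1, a PDZ and LIM protein, of -0.14. The calls of ketn-1, tln-1, lim-9 and alp-1 did not hold throughout when a library was left out. ketn-1 had adjusted p-values of 0.119 and 0.123 without the second or the third control library, and of 0.107 and 0.123 without the second or the third labelled RNAi library. tln-1 reached 0.125 without the second control library, and 0.147 and 0.116 without the second or the third labelled RNAi library. lim-9 kept its call only without the first control library, with adjusted p-values from 0.147 to 0.257 otherwise, and alp-1 kept its call only without the third control library or the second labelled RNAi library, with adjusted p-values from 0.116 to 0.151 otherwise.

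Of 7 genes for myosin folding and thick filament assembly, 4 were called higher and none lower, under median-of-ratios scaling as well. Among all genes tested 31.7% were called higher and 11.4% lower, and 18.8% and 19.3% under that scaling. hsp-90, a chaperone that works with UNC-45 on myosin heads, rose from 1466 ± 47.7 FPKM to 1757 ± 26.4 FPKM (SD, n = 3 in either group), a change on the log2 scale of 0.26 (SE 0.03, limma adjusted p = 0.0018). The ubiquitin ligase gene chn-1 rose by 0.31 and the co-chaperone gene unc-23 by 0.32 on the log2 scale. These chaperone genes are expressed outside muscle too. unc-45 itself, the myosin chaperone, had a log2 fold change of 0.05 and was not called.

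None of the 10 genes of the dystrophin complex, which links the membrane of muscle to its cytoskeleton, was called by limma or had an unadjusted p under 0.05 (2 were called lower after median-of-ratios scaling). By comparison, 43.0% of all genes tested were called in either direction (38.2% after that scaling). Of 15 genes for excitation and calcium handling, the calcium pump gene sca-1 was called higher (0.12, adjusted p = 0.0697) and the calsequestrin gene csq-1 lower (-0.14, adjusted p = 0.0159). After median-of-ratios scaling the log2 fold change of sca-1 was 0.00064 and that of csq-1 was -0.26. sca-1 was also not called without the second or the third control library (adjusted p = 0.175 and 0.161) or without the second or the third labelled RNAi library (adjusted p = 0.153 and 0.184). Of 8 transcription factors of muscle that were tested, fozi-1 was called higher (0.36, limma adjusted p = 0.0126) but not after quantile normalization (0.16, limma adjusted p = 0.196), where none of the list was called higher and 2 were called lower. The body wall markers hlh-1 and unc-120 were not called in the deposited FPKM (log2 fold changes of -0.13 and -0.08). After median-of-ratios scaling both were called lower, hlh-1 at -0.25 (limma adjusted p = 0.0952) and unc-120 at -0.20 (limma adjusted p = 0.0291).

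Markers of other tissues were read in the same fit. Among all genes tested, 31.7% were called higher and 11.4% lower (18.8% and 19.3% after median-of-ratios scaling). The lists are short and no set test was run. Of 10 nonmuscle myosins and relatives, 6 were called higher and none lower (4 and 2 after median-of-ratios scaling). nmy-2, a nonmuscle myosin used in cell division, rose by 0.54 (adjusted p = 0.00155), and the unconventional myosins hum-6 and hum-1 rose by 0.40 and 0.40. Of 9 genes of the molting cycle, 5 were called higher and none lower (4 and 2 after median-of-ratios scaling), their summed FPKM ranging from 658 to 799 in the control libraries and from 764 to 928 under the let-607 RNAi label. mlt-11 rose by 0.91, noah-1 by 0.82 and noah-2 by 0.71 on the log2 scale. In the same list mlt-10 and nekl-2 had log2 fold changes of -0.19 and -0.12 and were not called. After median-of-ratios scaling both were called lower, at -0.31 and -0.24 (limma adjusted p = 0.0596 and 0.018). Among 7 epidermis markers 5 were called higher (2 higher and 1 lower once scaled by median of ratios), among 7 neuron markers 2, and among 7 germline markers 3 were called higher and 1 lower. The intestine markers gave 1 higher and 1 lower of 7. Once scaled by median of ratios, the intestine markers gave 1 higher and 4 lower, the germline markers 1 and 1, and the neuron markers 1 higher and none lower. Of 11 pharyngeal genes outside muscle, 10 were tested and 2 were called higher. No gene of these lists was at 0 in all libraries. The summed FPKM of the 10 filament genes ranged from 6414 to 6622 in the control libraries and from 6574 to 6702 under the let-607 RNAi label, and these ranges overlapped. The part of growth stage or of tissue makeup in the filament results was not tested.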

How the data were processed

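Whole L4 worms had been sequenced in 6 libraries, grouped by the sample titles into control (3) and let-607 RNAi (3). The authors deposited FPKM per gene and library, rounded to 2 decimals. The paper's methods name TopHat and the Cufflinks tools on WBcel235, whereas the submitters' processing notes name fastp, HISAT and RSEM, so the aligner behind the values is unclear. Of 48197 lines, 1 broken line was left out and 1418 repeats with the same values were used once. Exon lengths and positions are from Ensembl release 115 (WBcel235), which held 46603 of the 46778 genes.

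log2(FPKM + 0.1) was fitted with limma 3.58.1 (R 4.3.3, mean-variance trend, no covariates) for genes averaging 0.5 FPKM or more, and the fit was tested on simulated data. Depth was estimated from single-transcript genes of 800 to 1200 bases. Ratios were tested with scipy 1.17.1. Alternatives were other pseudocounts (1, 0.01) and filters (none, 5 FPKM), 3 scalings, a replicate block, other eBayes settings, each library left out and, added later, removal of each library's lowess trend (span 0.3) on exon length. The members, lists and ratios were chosen with earlier results of these data known. Named genes are the members, the genes of each ratio and up to 3 genes per direction and list with the largest change among those called without overlap between the groups. hlh-1, unc-120, unc-45, mlt-10, nekl-2, tnt-2 and tnt-3 were named after their values were seen.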

Additional observations from a re-analysis of the deposited data

How the results depend on the processing

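Scaling between libraries mattered most. Its forms moved values in opposite directions, with a median log2 fold change over all genes tested of 0.174 when rescaled to TPM and 0.00464 after median-of-ratios scaling. Median-of-ratios scaling and quantile normalization gave 2910 and 2565 of all genes called higher and 2987 and 2912 called lower, 0 and 2 filament genes called higher, and 9 and 10 genes of the other muscle lists called higher with 30 and 19 called lower. Median-of-ratios scaling called 3 filament genes lower, and rescaling to TPM called 6 genes of the other lists lower. With 1 library left out, 3666 to 4666 of all genes were called higher and 1399 to 1675 lower. The filament genes then gave 2 to 4 higher, the other muscle lists 10 to 19 higher and 9 to 13 lower, and 6 to 8 of the ratios were separated. Replicate numbers did not pair the libraries (correlations of same-numbered libraries' deviations of -0.058, 0.0028 and -0.018). The replicate block called 2 filament genes higher, and 4439 of all genes.

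Of the genes and ratios named and followed through every alternative, those below changed direction, and lim-9 was the one among them that had been called. unc-45, tnt-2 and tnt-3, followed in fewer alternatives, also turned negative after median-of-ratios scaling (log2 fold changes -0.075, -0.11 and -0.0066). After median-of-ratios scaling the log2 fold change was -0.061 for myo-1, -0.030 for myo-2, -0.072 for myo-3, -0.11 for tnc-2 and -0.011 for lim-9. After quantile normalization it was -0.086 for myo-1, -0.061 for myo-2, -0.023 for myo-3, 0.072 for lev-11, 0.063 for unc-27, 0.014 for pat-10 and -0.094 for tnc-2. Rescaling to TPM gave 0.034 for lev-11, and removing the length trend gave -0.0066 for myo-3. With 1 library left out, log2 fold changes ranged from -0.02 to 0.10 for myo-1, from -0.203 to 0.044 for tnt-4 and from -0.065 to 0.111 for tnc-2. Differences in log2 ratio then ranged from -0.042 to 0.034 for myo-3/myo-1, from -0.196 to 0.049 for mup-2/tnt-4, from -0.013 to 0.081 for unc-27/tni-4, from -0.0086 to 0.062 for myo-2/myo-1 and from -0.096 to 0.023 for unc-89/unc-22. The cause of these shifts was not tested, and 3 libraries per group limit each result.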
